A study of Mus musculus with 6 samples.

Results

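Aurora kinases, Polo-like kinase 1 and the subunits and activators that work with them were followed here as 1 set of 9 genes in ribosome footprint libraries of mouse oocytes. The set holds the kinases Aurka, Aurkb, Aurkc and Plk1, the chromosomal passenger complex subunits Incenp, Birc5 and Cdca8, and the activators Tpx2 and Bora. Members were taken by gene name from a table of 22416 genes, and all 9 were found. The libraries came from Ribo-lite, which profiles ribosomes in small inputs and sequences the stretches of mRNA that ribosomes protect. There were 3 groups of 2 libraries, each library from 500 pooled oocytes of 4-week-old wild-type females (C57BL/6 in the study's methods) that had received PMSG 44 h before collection. WT_FGO were fully grown control oocytes, which are at the germinal vesicle stage, WT_MII were control metaphase II oocytes, and Treat_MII were metaphase II oocytes that the labels call treated. In the study's methods the treatment is BYBX, a ligand that stabilizes RNA G-quadruplexes, and the controls received DMSO. The questions were how footprints on these 9 genes differed between the oocyte stages, and whether they differed between treated and control metaphase II oocytes. The study calls its Ribo-lite replicates biological, and the labels do not say which animals or cultures each library came from. The p-values measure the spread between these libraries.

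Aurora kinases and Plk1 are serine/threonine kinases that drive spindle assembly, chromosome alignment and chromosome segregation. Aurora A (Aurka) acts at spindle poles, where Tpx2 activates it on microtubules, and Bora helps it to phosphorylate and activate Plk1. Aurora B (Aurkb), and in germ cells Aurora C (Aurkc), form the catalytic part of the chromosomal passenger complex with the scaffold Incenp, survivin (Birc5) and borealin (Cdca8), which place the kinase at centromeres. A fully grown oocyte transcribes little, and during maturation to metaphase II it relies on stored mRNAs whose translation is switched on or off. A short 3′-UTR sequence, the cytoplasmic polyadenylation element (CPE), is a known site for this control when it lies close to the poly(A) signal.

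In the GRCm38 build Aurka lies at chr2:172356190-172370535 on the minus strand, Aurkb at chr11:69045647-69051664 and Aurkc at chr7:6995300-7003091 on the plus strand. Plk1 lies at chr7:122159439-122169873 (plus), Incenp at chr19:9872296-9899551 (minus), Birc5 at chr11:117849251-117855743 (plus) and Cdca8 at chr4:124918465-124939311 (minus). Tpx2 lies at chr2:152847964-152895321 and Bora at chr14:99046222-99074540, both on the plus strand.

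A stretch of 30 bases near the end of the 3′-UTR is shown for the 3 Aurora kinases, because these are the members with a CPE there, and for the 4 members that passed the test between the stages. Each stretch ends with the last poly(A) signal of the final 100 bases, or, for Aurka, where none was found in that window, with the CPE. They were read from the reference transcripts of GENCODE release 21 (GRCm38), 1 transcript a gene, 5′ to 3′ on the sense strand, and capitals mark the CPE (TTTTAT) and the poly(A) signal (AATAAA or ATTAAA).
Aurka: tttttctgcatgttaaaggctattTTTTAT
Aurkb: aaattatgaagaacaacaTTTTATAATAAA
Aurkc: tttctcTTTTATgaagtgatgttaATTAAA
Birc5: agttttcctaccacggggtaacggAATAAA
Cdca8: acacctccacacacacacAATAAAAATAAA
Tpx2: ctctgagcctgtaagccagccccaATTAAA
Bora: caaaatgattcattagtcctagaaAATAAA
The motif TTTTAT or TTTTAAT was found in the last 100 bases of the 3′-UTR of Aurka, Aurkb and Aurkc, and in none of the other 6 members, of which Cdca8 has a 3′-UTR of 92 bases. It started 59, 37 and 44 bases before the 3′ end of the transcript in Aurka, Aurkb and Aurkc. Of 19143 genes with a 3′-UTR of at least 100 bases, 17.8% held it in that window, and 77.4% held a poly(A) signal. A G-quadruplex motif, taken as 4 stretches of 3 or more G that are parted by loops of 1 to 7 bases, was found in no 5′-UTR, coding sequence or 3′-UTR of the 9 transcripts. Over all genes it was in 6.16% of 20494 5′-UTRs, 3.63% of 21266 coding sequences and 9.69% of 20577 3′-UTRs. Among regions within 10% of a member's length the share ran from 0.549% to 11.7% for 5′-UTRs, from 0.940% to 6.06% for coding sequences and from 0.815% to 13.2% for 3′-UTRs. These are matches of letters in 1 transcript a gene, and no binding data were analysed here. The study itself mapped RNA G-quadruplexes with an antibody in germinal vesicle, control metaphase II and treated metaphase II oocytes, and those data were not used here.

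The deposited values are FPKM, footprints scaled by coding length and by the library total, so each value is a share of its library and more or fewer footprints per oocyte as a whole would go unseen. A change of footprints can come from the amount of the mRNA or from ribosomes per mRNA. Levels of mRNA were not analysed here. FPKM multiplied by coding length gave whole reads for all 9 members, with library totals from 94309 to 331304 reads. The depth was lowest in WT_FGO, where 1 read on a 1-kb coding sequence was worth 10.6 and 9.32 FPKM, and highest in Treat_MII, where it was worth 3.02 and 3.63 FPKM. All 10 oocyte marker genes were above 0 in every library, with a summed level of 18986 to 45902 FPKM. Of these, 9 were lower in both WT_MII libraries than in both WT_FGO libraries, Zp3 for example at 486 and 497 FPKM after 7769 and 4164, while Oosp1 went from 122 and 185 FPKM to 11263 and 15029 FPKM and made up most of the WT_MII sum. The 14 cumulus and granulosa cell markers summed to 1376 FPKM in WT_FGO replicate 2, with 9 above 0 and Kitl, Has2, Ptx3, Tnfaip6 and Nr5a2 at 0, against 127 to 297 FPKM in the other libraries, where 5 to 9 were above 0. Inha alone was at 747 FPKM in that library, while Kitl was highest in WT_MII replicate 1 (168 FPKM). WT_FGO replicate 2 stood apart in this sum, and the part of these cells in the results was not tested, so calls against WT_FGO are also given without it. Over the 2706 genes with at least 60 reads the 2 libraries of a group had a Spearman correlation of 0.850 in WT_FGO, 0.853 in WT_MII and 0.959 in Treat_MII.

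Of the kinases, Aurka and Plk1 carried nearly all of the reads. Aurka stood at 195 and 157 FPKM in the WT_FGO libraries, at 266 and 305 in the WT_MII pair and was at 268 and 241 in the Treat_MII pair, from 21 to 111 reads a library. The control metaphase II values lay above those of the immature oocytes, by 0.70 ± 0.30 (SE) on the log2(FPKM + 1) scale that is used for every change below, and this did not pass the test (limma adjusted p = 0.235). Plk1 stood at 152 and 180.4 FPKM before maturation. It was at 80.4 and 148 FPKM in the WT_MII libraries, and 73.4 and 84.2 FPKM were measured after treatment. The 2 WT_MII libraries differed widely from each other, their higher value lay just under the lower WT_FGO value, and the log2 change was -0.60 ± 0.43 (limma adjusted p = 0.490). Of the coding sequence of Plk1, 21.3% of 28-base words also occur in the pseudogene Plk-ps1, and 156 coding bases overlap Gm44985 on the other strand. The strand setting of the counting is not given in the sources used here, so these reads can be shared.

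Aurkb and Aurkc, the kinases of the passenger complex, were at or under 3 reads in every library. Aurkb had 1 and 2 reads in WT_FGO (10.2 and 18.02 FPKM), none in either WT_MII library, and 2 and 3 reads in Treat_MII (5.83 and 10.5 FPKM). Aurkc had 1 read in each WT_FGO library (10.7 and 9.43 FPKM), 0 and 2 in WT_MII (0 and 8.76 FPKM), and 1 and 0 in Treat_MII (3.05 and 0 FPKM). At counts this low no fold change is given for either kinase. The limma adjusted p of the stage comparison was 0.0641 for Aurkb, which moved under the threshold with a pseudocount of 0.1 (0.0439) and with precision weights on the reads (0.0462) and stayed above it in the other alternatives that tested it, and 0.491 for Aurkc. Most of the 28-base words of Aurkc, 88.6%, also occur in other genes (Gm12463, Gm45598 and Gm6909 among them), so its reads cannot be assigned with certainty.

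**Figure D1:**
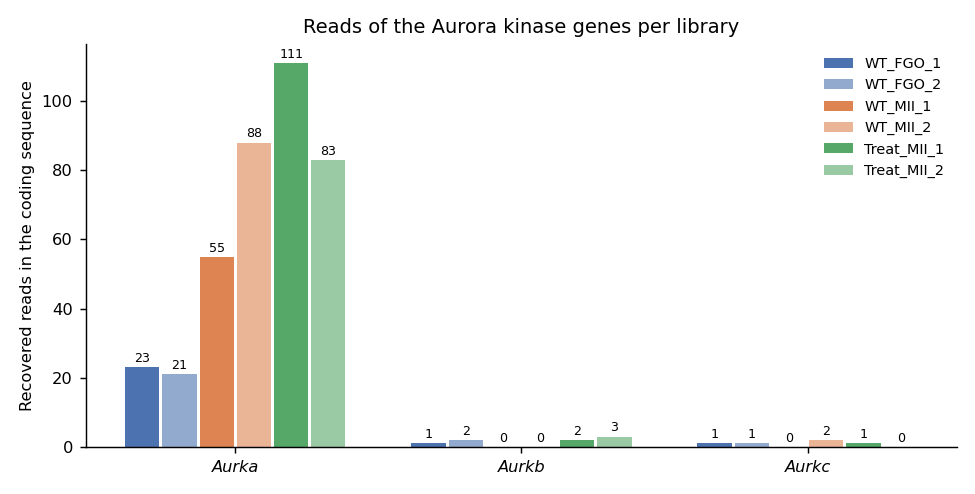
Recovered reads of the 3 Aurora kinases in each of the 6 libraries, with a bar for each library and colours for the 3 groups, on axes that start at 0. Aurka had 21 to 111 reads a library, while Aurkb and Aurkc did not exceed 3 reads.

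The non-enzymatic subunits of the passenger complex moved in different directions between the stages. Birc5, which encodes survivin, was at 2460 and 2457 FPKM in WT_FGO and at 287 and 156 FPKM in WT_MII. The 2 WT_FGO libraries were almost equal and lay above 99.8% of the genes tested, and every metaphase II library was far lower. The mean fell from 2458 ± 2.00 (SD, n = 2) to 221 ± 92.4 FPKM (SD, n = 2), which is 11.1-fold lower, with a log2 change of -3.53 ± 0.34 (limma adjusted p = 0.00457). Of the 28-base words in the coding sequence of Birc5, 12.1% also occur in Gm48337, so some of its reads can be shared. Cdca8, which encodes borealin, was at 41.6 and 27.4 FPKM in WT_FGO and at 267 and 497 FPKM in WT_MII. It rose 11.1-fold between the means, with a log2 change of 3.39 ± 0.44 (limma adjusted p = 0.0116). The WT_FGO value of Cdca8 rests on 4 and 3 reads, against 45 and 117 in WT_MII, and the exact interval of the ratio of pooled reads per library total was 5.59 to 29.8, which covers counting error only. Incenp, the scaffold that holds the complex together, was at 28.1 and 24.7 FPKM in WT_FGO and at 16.1 and 42.7 FPKM in WT_MII. These groups overlapped, and the log2 change was -0.00 ± 0.62 (limma adjusted p = 1), with a sign that turned under both other scalings (0.46 and 0.54).

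The ratio between the 3 subunits within a library moved accordingly. Birc5 stood 59.2 and 89.6 times as high as Cdca8 in the 2 WT_FGO libraries, per length of coding sequence. In WT_MII that ratio of FPKM values was 1.07 and 0.314, and in Treat_MII it was 1.36 and 1.30. Cdca8 over Incenp gave 1.48 and 1.11 in WT_FGO. It gave 16.6 and 11.6 in control metaphase II oocytes, and 7.55 and 6.51 in treated ones. A ratio within a library does not depend on the library total. These ratios are a description, since an exact two-sided permutation test of 2 libraries against 2 cannot go below p = 0.333. The share of Birc5 in the summed FPKM of the 9 genes was 84.0% and 83.9% before maturation. It was 21.6% and 8.84% in control metaphase II oocytes, and 24.0% and 22.3% in treated ones.

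**Figure D2:**
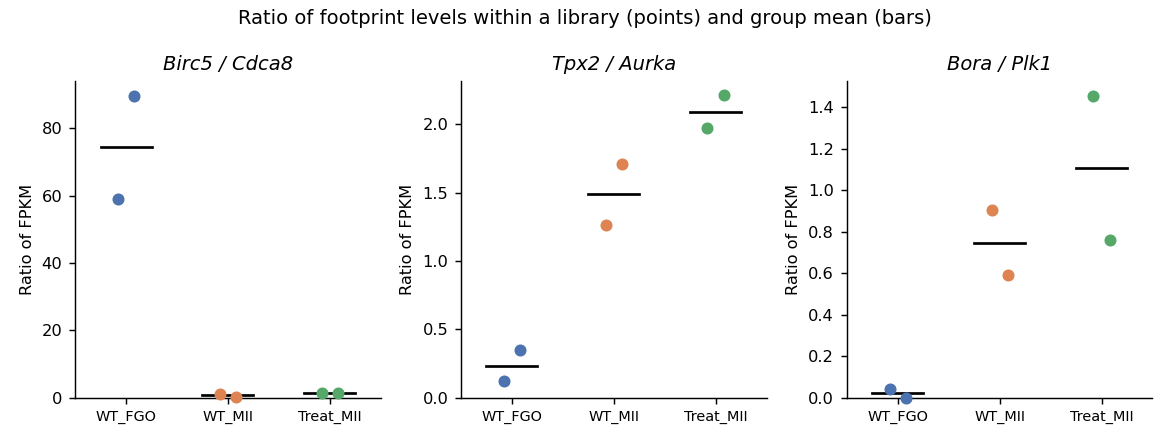
Ratios of FPKM between members within each of the 6 libraries, 1 panel a ratio, with a point for each library, a line at the mean of the 2 libraries and colours for the 3 groups, on linear axes that start at 0. Birc5 over Cdca8 lies at 59.2 and 89.6 in WT_FGO and between 0.314 and 1.36 in the 4 metaphase II libraries, and Tpx2 over Aurka lies at 0.122 and 0.347 against 1.26 to 2.21.

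Both activators rose. Tpx2, the spindle protein that activates Aurora A, was at 23.7 and 54.2 FPKM in WT_FGO and at 336 and 521 FPKM in WT_MII. Its mean rose 11.0-fold, with a log2 change of 3.51 ± 0.47 (limma adjusted p = 0.0139), from 18 reads in the 2 WT_FGO libraries together to 393 in the 2 WT_MII libraries. Tpx2 over its kinase Aurka gave a ratio of 0.122 and 0.347 before maturation, and of 1.26 and 1.71 in control metaphase II oocytes. Bora, the cofactor for activation of Plk1, was at 6.70 and 0 FPKM in WT_FGO, 1 read in all, and at 72.8 and 87.5 FPKM in WT_MII, from 19 and 32 reads. The log2 change was 4.86 ± 1.01 (limma adjusted p = 0.0457). Because it rests on 1 read in WT_FGO, the ratio of reads per library total was 25.97 with an exact 95% interval of 4.46 to 1045.47, and with a pseudocount of 0.1 the call was lost (limma adjusted p = 0.141). Bora over Plk1 gave 0.0440 and 0 before maturation, and 0.905 and 0.590 in control metaphase II oocytes.

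**Figure D3:**
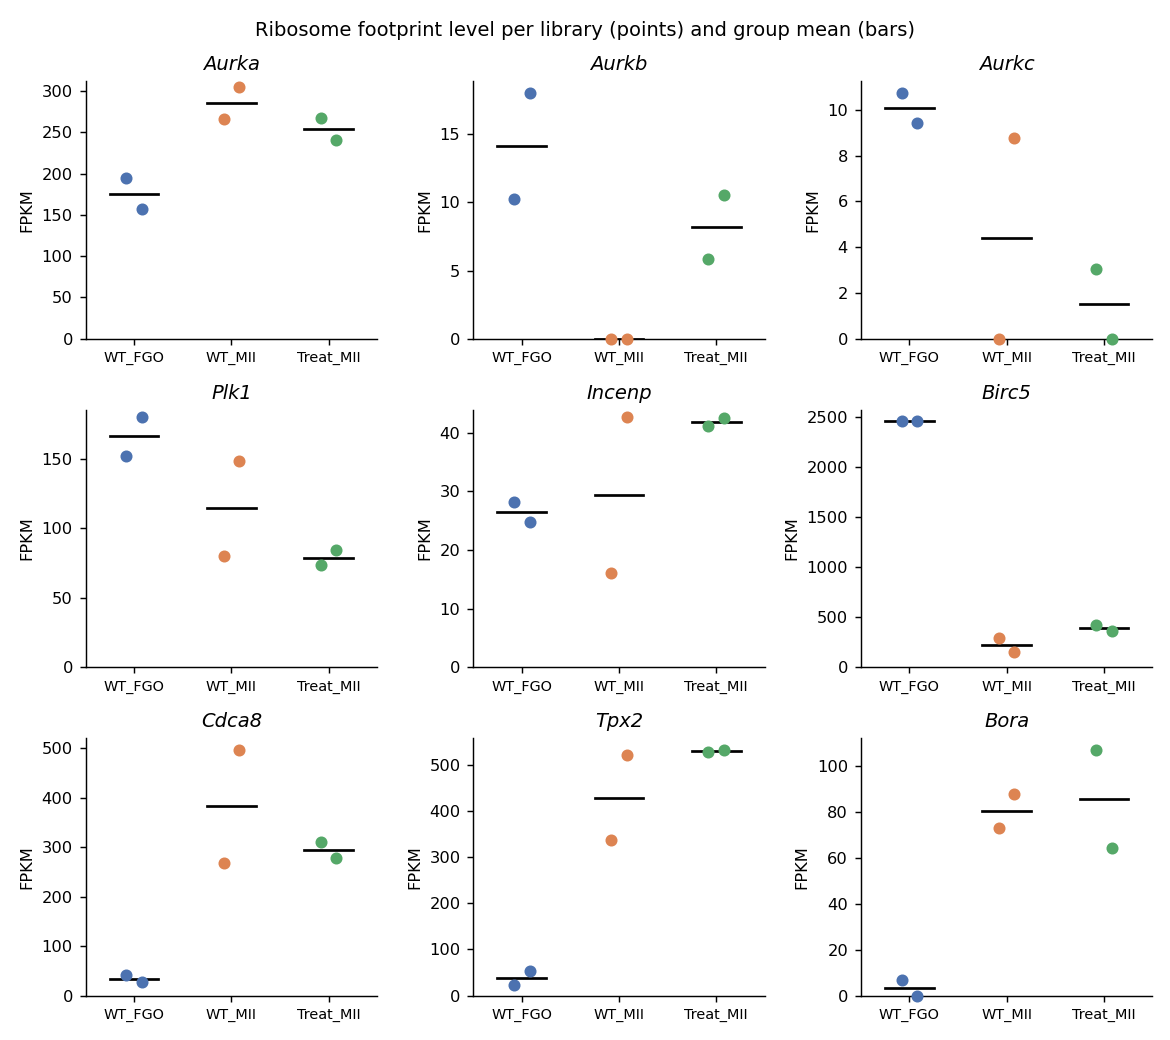
FPKM of the 9 genes in each library, 1 panel a gene, with a point for each library, a line at the mean of the 2 libraries and colours for the 3 groups. The axes start at 0 and differ between panels. Birc5 lies near 2458 in WT_FGO and at 156 to 421 in the 4 metaphase II libraries, and Cdca8, Tpx2 and Bora are higher in all 4 of them than in WT_FGO.

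Between WT_FGO and WT_MII, 4 of the 9 members passed the test, Tpx2, Cdca8 and Bora higher and Birc5 lower. Over the 15127 genes tested, 3.67% were called higher and 3.09% lower (6.76% together), a split that centring each library on its median moved from 555 and 468 genes to 758 and 305. Calls were far more common among genes with more reads. Of the 2706 genes with at least 60 reads, fitted alone, 745 were called higher and 509 lower, and the same 4 members were called. All 9 members passed the filter of a mean of 1 FPKM over the 6 libraries. The WT_MII values of 4 members lay above both WT_FGO values and those of another 4 below, against 15.3% and 25.8% of all genes tested. Aurkb and Aurkc, at or under 3 reads in every library, were among those below. Under an unadjusted p of 0.05 there were 5 members, Aurkb among them, against 22.8% of all genes. The median log2 change of the members, taken in the main setting only, was -0.00, beside -0.44 over all genes. The median over all genes depended on the setting, at 0.02 with median centring, -0.03 with quantile normalization and 0.23 over genes with at least 60 reads. The calls borrow their estimate of spread from all 6 libraries. With the 2 groups alone in the fit, without the mean-variance trend, or without either Treat_MII library, none of the 9 was called, and with the 2 groups alone no gene of the table was, although 2858 genes were under an unadjusted p of 0.05. Leaving out WT_FGO replicate 2, the library with the higher cumulus and granulosa markers, left Bora and Tpx2 called, while Birc5 fell by 3.53 on the log2 scale (limma adjusted p = 0.0505) and Cdca8 changed by 3.10 (0.0639). Birc5 and Cdca8 were called without WT_MII replicate 1, and Birc5 alone without WT_MII replicate 2. The direction of these 4 changes was the same in all 16 alternatives, with log2 changes of -3.97 to -3.07 for Birc5, 2.95 to 3.86 for Cdca8, 2.93 to 4.09 for Tpx2 and 3.39 to 6.60 for Bora.

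**Figure D4:**
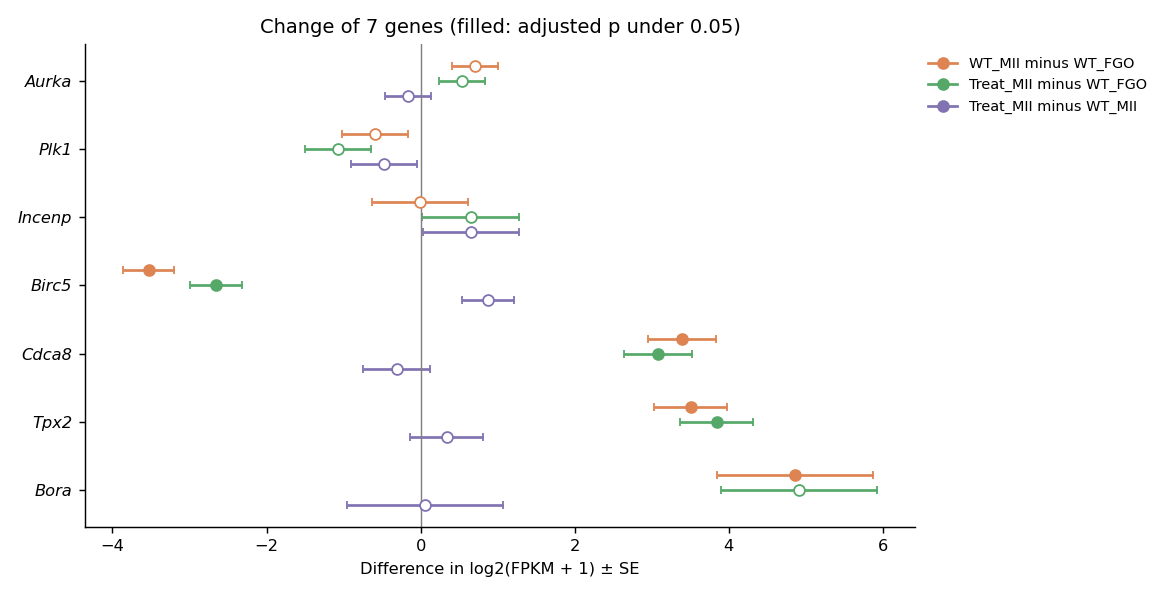
Differences in log2(FPKM + 1) of the 7 members above 3 reads in some library, with bars for the SE of the limma fit, for the 3 comparisons of groups. Filled points had an adjusted p under 0.05. Birc5 lies at -3.53 and -2.66 against WT_FGO and Tpx2 at 3.51 and 3.85, and every point of Treat_MII minus WT_MII is open.

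In treated against control metaphase II oocytes none of the 9 members passed the test, and none of the 15127 genes did. The percent called was 0 in both directions over all genes, with the smallest limma adjusted p at 0.248. At an unadjusted p under 0.05 there were 882 genes, 5.83% of all, among them Birc5 and Aurkb. With precision weights on the recovered reads 65 genes were called higher and 100 lower, and no member was among them. Leaving out 1 library, which leaves its group with 1, gave 17 genes higher and 347 lower without WT_MII replicate 1, 31 and 387 without WT_MII replicate 2, and 363 and 398 higher with 0 lower without Treat_MII replicate 1 and replicate 2. No member was called in any of these, and no gene was called without either WT_FGO library. Birc5 was at 421 and 360 FPKM in Treat_MII (62 and 44 reads) against 287 and 156 FPKM in WT_MII (21 and 16 reads). The treated libraries lay above both controls, 1.76-fold by the means, with a log2 difference of 0.88 ± 0.34 (95% interval 0.05 to 1.70, limma adjusted p = 0.842, unadjusted 0.0401). That difference was 0.44 without WT_MII replicate 2 and 1.31 without WT_MII replicate 1. Both treated libraries of 3 members, Aurkb, Birc5 and Tpx2, lay above both controls, against 16.2% of all genes, and those of 0 members lay below, against 15.6%.

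For the other 6 members above 3 reads the difference did not pass the test, and the intervals give the sizes that remain possible. For Tpx2 the values were 528 and 532 FPKM in Treat_MII and 336 and 521 FPKM in WT_MII, a log2 difference of 0.34 (95% interval -0.82 to 1.50) that ran from 0.025 to 0.66 without WT_MII replicate 1 and replicate 2. Cdca8 was at 311 and 277 FPKM against 267 and 497 FPKM, a difference of -0.31 (-1.37 to 0.75) that turned to 0.13 without WT_MII replicate 2. Bora was at 107 and 64.2 FPKM against 72.8 and 87.5 FPKM, a difference of 0.05 (-2.42 to 2.52) whose sign turned with median centring (-0.06). The kinases Aurka and Plk1 differed by -0.17 (-0.89 to 0.56) and -0.47 (-1.51 to 0.58). Without WT_MII replicate 1 these differences were -0.26 and -0.91, and without WT_MII replicate 2 they were -0.070 and -0.032. Incenp was at 41.2 and 42.6 FPKM in Treat_MII, close to the higher of the 2 WT_MII libraries, and its difference of 0.65 (-0.87 to 2.17) fell to -0.03 without WT_MII replicate 1. The limma adjusted p of these 6 genes lay between 0.953 and 1. The median log2 difference was 0.05 over the members and 0.00 over all genes.

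Treated metaphase II oocytes were also set against WT_FGO, a comparison that shares the WT_FGO libraries with the stage comparison of the controls. Here Birc5 was 6.30-fold lower by the means (log2 change -2.66 ± 0.34, limma adjusted p = 0.0137), where the control oocytes gave 11.1-fold. Tpx2 was 13.6-fold higher (3.85 ± 0.47, limma adjusted p = 0.0125) and Cdca8 8.52-fold higher (3.08 ± 0.44, limma adjusted p = 0.0199). Bora had 84 reads in Treat_MII against 1, a log2 change of 4.92 ± 1.01 that did not pass the test (limma adjusted p = 0.0608). It passed with a minimum mean of 5 FPKM (0.0402), median centring (0.0463), quantile normalization (0.0340), precision weights (0.000128) and a minimum of 60 reads (0.0129). The 3 called members compare with 2.86% of all genes called higher and 1.0% called lower (3.87% together). With the minimum of 60 reads 4 members were called, beside 733 genes higher and 413 lower of 2706. Under an unadjusted p of 0.05 there were 5 members, against 19.9% of all genes. The Treat_MII values of 5 members lay above both WT_FGO values and those of 3 below, with Aurkc among the latter, against 16.6% and 28.9% of all genes. Plk1 lay below both WT_FGO libraries (-1.07 ± 0.43, limma adjusted p = 0.242) and Incenp above both (0.65 ± 0.62, limma adjusted p = 0.589), as did Aurka (0.54 ± 0.30, limma adjusted p = 0.396). None of the members was called without either Treat_MII library. Without WT_FGO replicate 1 or 2 the called members were Bora and Tpx2, with Birc5 at -2.65 and -2.66 (limma adjusted p = 0.0907 and 0.0902) and Cdca8 at 3.37 and 2.79. Without WT_MII replicate 1 or 2 Birc5 alone was called, and the changes of Tpx2 and Cdca8 were still 3.85 and 3.08, since these libraries are not in the comparison and enter only the estimate of spread.

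A list of 37 other genes of kinetochore, spindle checkpoint, spindle midzone and mitotic entry control gives the setting of the 9 members. Of these, 34 were tested. Between WT_FGO and WT_MII 9 were called higher and 2 lower, beside 3.67% and 3.09% of all genes tested. With a minimum of 60 reads, 12 genes of the list were called higher and 3 lower, beside 745 and 509 of 2706 genes. The median log2 change of the list, taken in the main setting only, was 1.09 against -0.44 over all genes. That median over all genes was 0.02 with median centring, -0.03 with quantile normalization and 0.23 over genes with at least 60 reads. The list, like the members, was chosen with earlier results of these data known, so its counts and median are a description. Bub1b, a checkpoint protein that helps to set kinetochore attachment, was at 23.5 and 82.7 FPKM in WT_FGO and at 2001 and 2270 FPKM in WT_MII (log2 change 5.56 ± 0.55, limma adjusted p = 0.00523). Kif23, a midzone kinesin, was at 175 and 189.6 FPKM and then at 1227 and 1553 FPKM (2.91 ± 0.23, limma adjusted p = 0.00288). Cdc20, the activator of the anaphase-promoting complex, had 1 and 2 reads in WT_FGO and reached 340.1 and 344 FPKM in WT_MII, a ratio of reads per library total of 34.5 (exact 95% interval 11.6 to 168). Sgo2a, which protects centromeric cohesin, had 3 and 0 reads in WT_FGO and 158 in WT_MII together, and its call (limma adjusted p = 0.0445) was lost, among other settings, with a pseudocount of 0.1. Cenpa and Ndc80 of the centromere and kinetochore, Kif2c and Kif20a, which are kinesins, and Wee2, the oocyte kinase that inhibits Cdk1, rose by 2.14 to 3.75 on the log2 scale. In the WT_FGO libraries Cenpa had 1 and 2 reads, Ndc80 3 and 4, Wee2 3 and 11, Kif2c 6 and 14 and Kif20a 21 and 22. The largest of these rises, that of Cenpa, thus rests on the fewest WT_FGO reads.

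**Figure D5:**
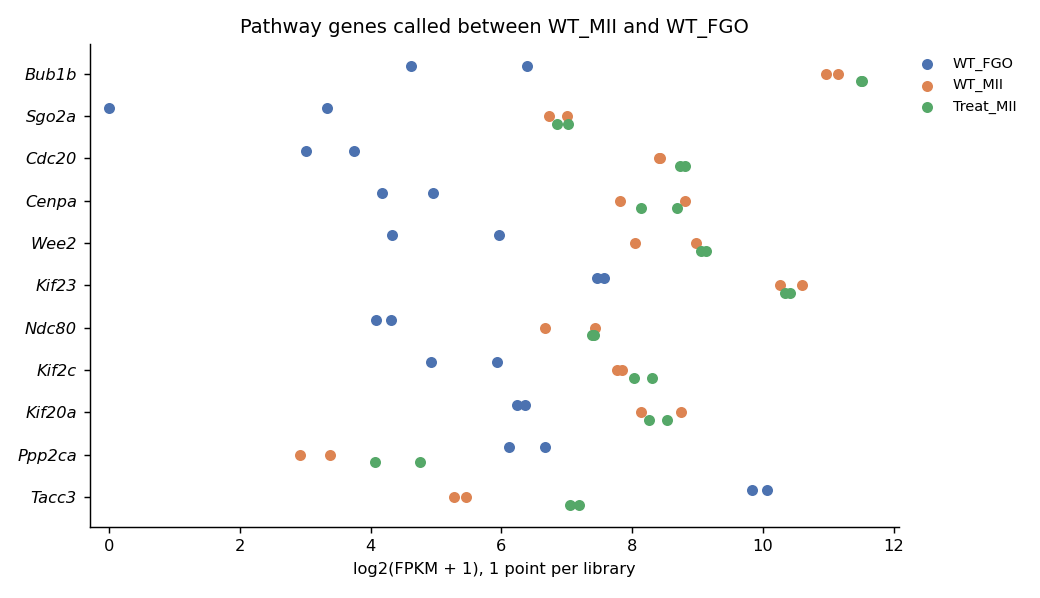
Levels as log2(FPKM + 1) of the 11 genes of the list called between WT_FGO and WT_MII, in order of their change, with a point for each library and colours for the 3 groups. The upper 9 genes are higher in all 4 metaphase II libraries than in WT_FGO, and Ppp2ca and Tacc3 are lower.

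The 2 genes of that list called lower were Tacc3 and Ppp2ca. Tacc3, a spindle protein that Aurora A phosphorylates, was at 1073 and 914 FPKM in WT_FGO and at 37.7 and 42.7 FPKM in WT_MII (log2 change -4.59 ± 0.31, limma adjusted p = 0.00194). In Treat_MII it was at 132 and 145 FPKM, above both WT_MII libraries, a log2 difference of 1.76 ± 0.31 (95% interval 1.0 to 2.51, limma adjusted p = 0.494, unadjusted 0.00124). It was called in that comparison with precision weights on the recovered reads, as was Bub1b. Ppp2ca, the catalytic subunit of phosphatase 2A, had 16 reads in WT_FGO and 3 in WT_MII, a ratio of reads per library total of 0.0955 (exact 95% interval 0.0178 to 0.334). Its call was lost, among other settings, with the replicate number as a block and without either WT_FGO library. The minimum of 60 reads removed Ppp2ca before the test. In Treat_MII 8 genes of the list were called higher than in WT_FGO and 1 lower, beside 2.86% and 1.0% of all genes. With the minimum of 60 reads these were 12 and 1, beside 733 and 413 of 2706 genes. Between the metaphase II groups none was called, apart from Tacc3 and Bub1b with precision weights and Plk2, which had 4 reads in all, when WT_MII replicate 1 was left out. Without WT_FGO replicate 2 the list had 10 calls between the control stages, Kif20a, Ppp2ca, Ndc80 and Cenpa being lost and Dsn1, Ckap5 and Fbxo43 gained, and 11 between Treat_MII and WT_FGO. Without either Treat_MII library none of the list was called between the control stages, without WT_MII replicate 1 there were 6 and without WT_MII replicate 2 there were 4.

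The genes whose pattern over the 6 libraries was most like that of Birc5, the member with the highest mean, were Mtmr14 and Gm4894, each with a Pearson correlation of 0.997, and Tubb2a with 0.995, among 1163 genes that averaged 100 FPKM or more. Mtmr14, a phosphoinositide phosphatase, stood at 1600.3 and 1482 FPKM before maturation. It was at 357 and 243 FPKM in control metaphase II oocytes and at 414 and 436 FPKM in treated ones. These correlations describe 6 libraries in which the 2 WT_FGO libraries lie far from the rest.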

How the data were processed

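Footprints were measured in 6 libraries. Per the study's methods the authors made them by Ribo-lite and deposited 1 table of FPKM per gene. The submitters' processing notes name cutadapt 1.14, Bowtie2 2.2.2, STAR 2.5.3a and the build mm10, without their roles, and the counting program and annotation are not given in the sources used here. From 22442 entries, 26 repeated gene names were left out. Whole reads were recovered by multiplying FPKM with the coding length of GENCODE release 21, within 0.02 reads, for 98.4% of 21962 genes. Their number limits the precision, and the exact intervals of read ratios cover counting error only. The intervals of log2 differences come from the limma fit and rest on the spread between libraries. Differences of log2(FPKM + 1) were tested with limma 3.58.1 (R 4.3.3; lmFit, eBayes with trend) in 1 fit of all 6 libraries, for genes whose mean reached 1 FPKM. P-values were adjusted by Benjamini-Hochberg over 15127 genes and called under 0.05. The scripts were tested on simulated data.

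The members and lists were chosen with earlier results of these data known. Named were every member, the genes of the list of 37 called in any comparison and its 3 highest by mean, and the 3 genes most like the highest member. Plk2, Dsn1, Ckap5, Fbxo43 and the single marker genes were named after their values were seen. Alternatives were another pseudocount, other filters, median centring, quantile normalization, only the compared groups, no trend, the replicate number as a block, precision weights on the reads (limma-voom) and leaving out each library. A filter of 60 reads was added after seeing the data.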

Additional observations from a re-analysis of the deposited data

How the results depend on the processing

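With only the compared groups in the fit, members called fell from 4 to 0 between the control stages and from 3 to 0 between Treat_MII and WT_FGO, and genes of the list of 37 from 11 to 0 between the control stages. Without the trend these counts were 0, 0 and 3. Precision weights gave 18 genes of that list between the stages and 2 between Treat_MII and WT_MII. Leaving out 1 library at a time, the counts ran from 0 to 4 and from 0 to 2 for the members, from 0 to 10 for the list between the stages, and from 0 to 1 between Treat_MII and WT_MII; the cause was not tested. Leaving out a library leaves its group with 1, which is then assumed to vary like the others. For Incenp, the stage difference turned to 0.46 with median centring, 0.54 with quantile normalization and 0.041 with weights, and ran from -0.68 to 0.67 over the left-out libraries. Between Treat_MII and WT_MII, Bora turned to -0.062 with centring and ran from -0.31 to 0.42, Incenp from -0.026 to 1.33 and Cdca8 from -0.76 to 0.13 over the left-out libraries. Aurkb, Aurkc, Bora and Cdca8 are limited by their counts of 0 to 4 reads a library in WT_FGO.

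Deviations of same-numbered libraries correlated at 0.0342, 0.0176 and 0.0189 over 2706 genes, so no shared deviation was seen. These values cannot tell whether same-numbered libraries came from the same animals or cultures. With the replicate number as a block, 4 members were called between the stages, 3 between Treat_MII and WT_FGO and 0 between the metaphase II groups, and 11 genes of the list between the stages, with Fbxo43 in place of Ppp2ca.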
